A study of Pan troglodytes with 38 samples.

Results

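The SLC25 carriers are the 45 genes, of 31373 in the deposited chimpanzee gene count table, whose symbol is SLC25A followed by a number. They were read in post-mortem heart tissue of 38 chimpanzees (Pan troglodytes), for which the labels name no treatment and only 1 group. The study states that some of the animals came from laboratory settings and had been exposed to hepatitis viruses, and its pedigrees show that some are close relatives, whereas the tests below treat all animals as independent. The dated RNA extraction batches of the study were grouped by year into 2 rounds, each of which may hold several dates. The earlier round had 17 animals (7 males and 10 females) and that of 2018 had 21 animals (9 males and 12 females). The study joins previously published chimpanzee data to new data. Whether library preparation or sequencing differed along with the round was not tested. Age was given for all but 4 animals and ran from 10 to 57 years, with a median of 32 years, and the RNA integrity number (RIN) ran from 2.5 to 8.4, with a median of 5.9. By a list chosen from general knowledge of the family, 6 members were taken as heart-enriched carriers, 16 as ubiquitous carriers and the remaining 23 as other carriers. Earlier results of these data were known when the lists were set, so contrasts between the lists are descriptions. SLC25A6, the other widely expressed ADP/ATP carrier, and the human orthologs were not analysed here.

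SLC25 proteins are nuclear-encoded and most of them sit in the inner mitochondrial membrane, where they exchange nucleotides, phosphate, carboxylic acids, amino acids, cofactors and acylcarnitines between the matrix and the cytosol. The heart depends on them because nearly all of its ATP is made in mitochondria and must be exported to the contractile apparatus in exchange for ADP. The same membrane step serves the malate-aspartate shuttle, which carries reducing equivalents inwards, and the entry of long-chain fatty acids as carnitine esters.

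Reads on orthologous exons, used here to scale each library, totalled 14408012 to 81603350 per animal with a median of 41226040, and CPM below means the counts of a gene per 1000000 counts of that total. These CPM are not divided by gene length, so levels were compared between animals and not between genes. The heart identity of the tissue was checked with 12 cardiomyocyte markers, of which TNNT2 was at 3682 CPM or more in every heart. Other markers were low in single hearts: MYH7, MYL2 and MYL3, genes of ventricular muscle, were lowest in heart 549 at 652, 315 and 40.9 CPM, where MYH6, the form of atrial muscle, was highest at 26143 CPM. The summed level of the 12 scaled by TMM (edgeR's normalization for library composition) ranged from 7391 to 101374 CPM with a median of 63536 CPM. Little_R and 537, both of 2018, had the lowest sums, 7391 and 13227 CPM, followed by 495 at 15657 CPM. The study calls Little_R and 537 outliers that share a technical batch. Their libraries were also small, with 14408012 reads on orthologous exons in Little_R, the lowest total, and 18946174 in 537. The mitochondrially encoded genes took 45.3% to 60.1% of the gene counts in the 5 hearts with the lowest sums, against a median of 30.4% over all 38. Other hearts broke this order. The next lowest sums, of 570 and 4x0025, went with 23.9% and 18.4%, and 4X0339 had 51.7% at a sum of 78015 CPM.

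The heart-enriched list holds the muscle ADP/ATP carrier and the phosphate carrier. SLC25A4, the ADP/ATP carrier of heart and skeletal muscle, was lowest at 448 CPM in Little_R, had a median of 3526 CPM and was highest at 4956 CPM in heart 503 (mean 3171 ± 1026, SD, n = 38). SLC25A3, the phosphate carrier that supplies ATP synthase, ran from 273 CPM over a median of 1593 CPM to 2393 CPM (mean 1545 ± 469, SD, n = 38). The extremes were the same animals for both genes, with Little_R lowest, 537 next at 722 and 482.5 CPM, and 503 highest.

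The shuttle carriers followed that order in part. SLC25A12, the calcium-regulated aspartate/glutamate carrier known as aralar, ranged from 32.6 CPM in Little_R over a median of 287 CPM to 472 CPM in 503. SLC25A11, the oxoglutarate carrier of the malate-aspartate shuttle, ranged from 95.6 over 332 to 517 CPM. Little_R was lowest for both, and the second lowest heart was 537 for SLC25A12 but 4x0025 for SLC25A11. SLC25A20, the carnitine/acylcarnitine carrier, ranged from 5.55 over 73.1 to 189 CPM, a 33.98-fold span, again with Little_R lowest.

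SLC25A34 is a little characterised member of the family. Its level was 2.94 CPM in heart 4x523 and 3.28 CPM in 4X0354, had a median of 41.2 CPM and reached 147 CPM in heart 676, a 50.02-fold span. The lowest hearts here were neither Little_R nor 537, which held 13.2% and 45.3% of the gene's median. For SLC25A4 the same 2 animals held 12.7% and 20.5% of the median.

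**Figure D1:**
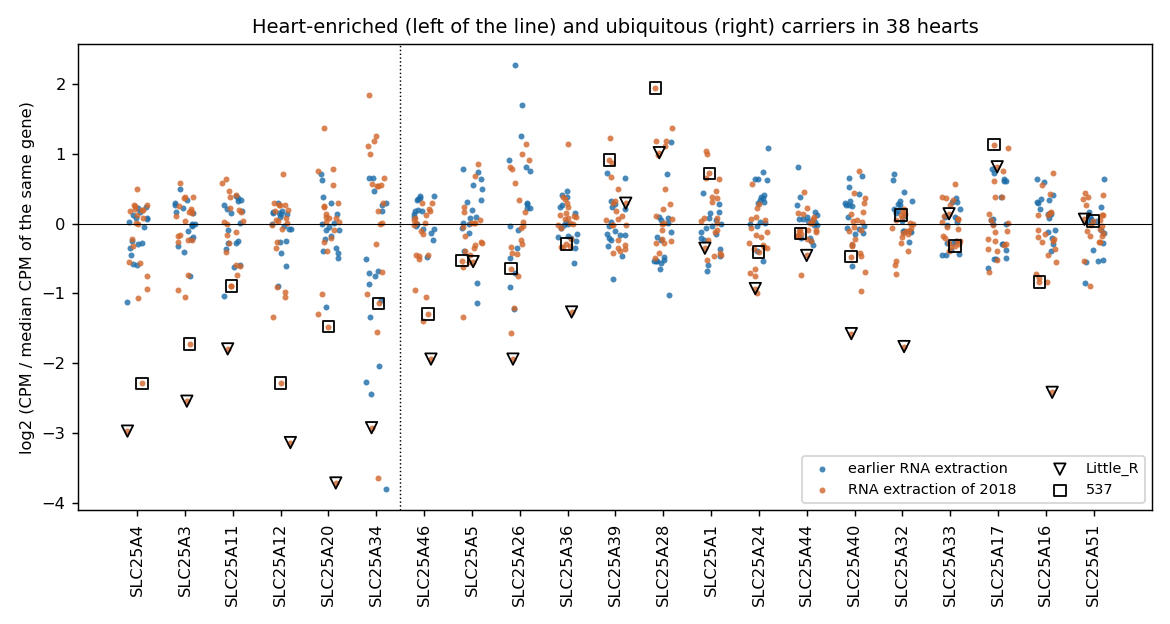
Level of the heart-enriched carriers and 15 ubiquitous carriers in each of 38 hearts, as the log2 ratio of its CPM to the median CPM of the same gene, with 1 point per heart coloured by the round of RNA extraction and the hearts Little_R and 537 outlined. Little_R lay at 12.7% of the median for SLC25A4 and 7.60% for SLC25A20, and heart 549 stood highest for SLC25A26.

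Over the 6 heart-enriched carriers the median ratio to the gene's own median was 0.129 in Little_R and 0.331 in 537, while the 14 ubiquitous carriers with a mean of at least 6 CPM had a median ratio of 0.707 and 0.862 in these hearts. The heart-enriched ratio was thus the lower of the pair in both hearts, a difference that was not tested.

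Among the ubiquitous carriers, SLC25A5, the ADP/ATP carrier of growing and non-muscle cells, ranged from 58.5 CPM in heart 676 over a median of 149 CPM to 269 CPM in heart 4X0550 (mean 151 ± 51.9, SD, n = 38). Little_R and 537 were at 102 and 103 CPM, below its median but above its lowest hearts. SLC25A46, an outer-membrane protein of mitochondrial dynamics, ran from 41.99 over 161 to 213 CPM with Little_R lowest. SLC25A36, a carrier of pyrimidine nucleotides, ran from 48.7 over 117 to 259 CPM, and SLC25A39, which takes up glutathione, from 49.0 over 85.01 to 198 CPM. For SLC25A39 the highest hearts were 495 and 537, which were at the low end for SLC25A4.

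SLC25A26, the S-adenosylmethionine carrier, had the widest span, as highest over lowest CPM, of the ubiquitous list. It ran from 26.9 CPM in Little_R over 103 CPM to 337 CPM in MD_And and 499 CPM in 549. SLC25A28, an iron carrier also called mitoferrin-2, ran from 22.6 CPM over 45.9 CPM to 177 CPM, with 537 highest and 558 next at 119 CPM. The citrate carrier SLC25A1 ran from 21.8 to 71.8 CPM and the ATP-Mg/phosphate carrier SLC25A24 from 15.5 to 65.7 CPM.

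The remaining ubiquitous carriers were read at lower CPM. SLC25A44, linked to branched-chain amino acids, had a median of 29.9 CPM, SLC25A40 of 26.5 CPM and SLC25A32, a carrier of folate and FAD, of 22.8 CPM. SLC25A33 (pyrimidine nucleotides), SLC25A17 (a peroxisomal cofactor carrier), SLC25A16 and SLC25A51 (NAD+) had medians of 15.2, 7.93, 5.94 and 3.39 CPM. SLC25A33 had the narrowest range of these, as highest over lowest CPM, from 11.1 to 22.5 CPM.

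Of the other carriers, SLC25A30, an uncoupling protein-like carrier, had a median of 229 CPM and ran from 36.5 CPM in Little_R to 491 CPM in MD_And. SLC25A25, an ATP-Mg/phosphate carrier known to respond to stimulation, had a median of 12.2 CPM but reached 145 CPM in heart 529 and 128 CPM in Little_R. At the low end, SLC25A31, the ADP/ATP carrier of testis, had no read in 25 hearts and at most 3 counts in any heart, so that its expression could not be told from 0 at this depth. SLC25A48 had at most 12 counts, and SLC25A47, known from liver, and SLC25A53 had no read in 3 hearts each.

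The balance of muscle to ubiquitous ADP/ATP carrier was read within each library, where library size cancels. The log2 ratio of SLC25A4 to SLC25A5 counts had a lowest value of 2.14 in Little_R, a median of 4.49 and a highest value of 5.44 in heart 623. The next lowest heart was 4x0025 at 2.65. The mean log2 ratio of the 17 earlier hearts was 4.30 with an SD of 0.70, and that of the 21 hearts of 2018 was 4.40 with an SD of 0.84. The 2 rounds overlapped, and their difference of 0.10 was within those given by shuffling the rounds over the hearts (permutation test, two-sided, 100000 resamples, p = 0.696). Without 537 and Little_R the difference was 0.30 (permutation test, p = 0.158). Gene length does not enter a comparison of this ratio between animals, but the ratio itself is not a ratio of molecules.

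The genes whose levels tracked these carriers most closely were ranked by Spearman's rho over the 38 animals, among 10403 genes with a symbol and a mean of at least 6 CPM. Nearest to SLC25A4 were MDH1 (0.93), a malate dehydrogenase, ATP5MC3 (0.92) and ATP5F1C (0.91), subunits of ATP synthase, COQ3 (0.90), an enzyme of coenzyme Q synthesis, and GOT2 (0.90), the mitochondrial aspartate aminotransferase. Nearest to SLC25A5 were VSNL1 (0.79), ACTA1 (0.73), the skeletal muscle actin, DHX32 (0.72), NPPB (0.71), which encodes a natriuretic peptide, and ALDH3A2 (0.71). No gene was in both groups, which says little for groups of 5 among 10403 genes. SLC25A4 and SLC25A5 themselves had a rho of 0.20. Within the family SLC25A5 ran in opposite order to SLC25A28, with a rho of -0.62, and to SLC25A34, with -0.57. Without Little_R and 537 these were -0.60 and -0.72, and SLC25A20 and SLC25A42 were at -0.63 and -0.62 with SLC25A5. SLC25A4 had its lowest rho within the family, -0.66, with SLC25A22. All levels share the same scaling by library, and these values are descriptions.

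To ask which carriers followed the level of cardiomyocyte markers, each gene was fitted on their log2 sum, with extraction round and sex as covariates (edgeR quasi-likelihood test, Benjamini-Hochberg adjustment over 17187 genes). In bulk tissue, fewer cardiomyocytes, less RNA per cardiomyocyte and a sample of another heart chamber cannot be told apart. The ventricular genes MYH7 and MYL2 are among the 4 most abundant markers, and heart 549, lowest for both, had a sum of 42311 CPM. Of the 45 members, 43 passed the filter on low counts, and 21 of them rose with the marker sum, beside a background of 26% of all genes tested. A further 9 fell, beside a background of 28.2%. The median slope was 0.19 over the 43 members and -0.04 over all genes, on the scale of log2 change per doubling of the sum.

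Among the heart-enriched carriers 5 of 6 rose, beside 26% of all genes tested, with a median slope of 0.77 over the list. SLC25A4 rose by 0.97 ± 0.06 (SE, n = 38; edgeR adjusted p = 2.68e-14), SLC25A12 by 0.94 ± 0.08 and SLC25A3 by 0.87 ± 0.06. SLC25A11 rose by 0.67 ± 0.07 and SLC25A20 by 0.61 ± 0.14 (edgeR adjusted p = 0.000558). SLC25A34 had a slope of 0.34 ± 0.23 (edgeR adjusted p = 0.199).

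Of the 16 ubiquitous carriers 9 rose and 1 fell, beside 26% and 28.2% of all genes tested, with a median slope of 0.18. SLC25A16 (0.64 ± 0.08), SLC25A46 (0.58 ± 0.08), SLC25A26 (0.56 ± 0.19), SLC25A40 (0.46 ± 0.08) and SLC25A36 (0.36 ± 0.08) had the larger slopes. SLC25A5 rose by 0.30 ± 0.10 per doubling (edgeR adjusted p = 0.00998) beside 0.97 for SLC25A4. The slopes of SLC25A32, SLC25A33 and SLC25A44 were 0.20, 0.19 and 0.18. SLC25A28 fell by 0.41 ± 0.08 (edgeR adjusted p = 0.000116). The others did not pass the test, among them SLC25A1, SLC25A17, SLC25A24, SLC25A39 and SLC25A51 with slopes between -0.15 and 0.12. The difference in slope between the lists was not tested.

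Of 21 other carriers tested 7 rose and 8 fell, beside 26% and 28.2% of all genes. SLC25A30 rose by 1.004 ± 0.12, SLC25A10, the dicarboxylate carrier, by 0.63 ± 0.09 and SLC25A21, the oxodicarboxylate carrier, by 0.56 ± 0.10. SLC25A15, an ornithine carrier, rose by 0.59 ± 0.13. SLC25A22, a glutamate carrier, fell by 0.90 ± 0.13, SLC25A25 by 0.75 ± 0.14, SLC25A43 by 0.62 ± 0.07 and SLC25A37, the iron carrier mitoferrin-1, by 0.46 ± 0.08. SLC25A47 fell by 1.27 ± 0.25, but it was read at 1.91 CPM or less in every heart. Aspartate/glutamate carriers parted: SLC25A12 rose while SLC25A13, known as citrin and the form of liver, fell by 0.22 ± 0.08.

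**Figure D2:**
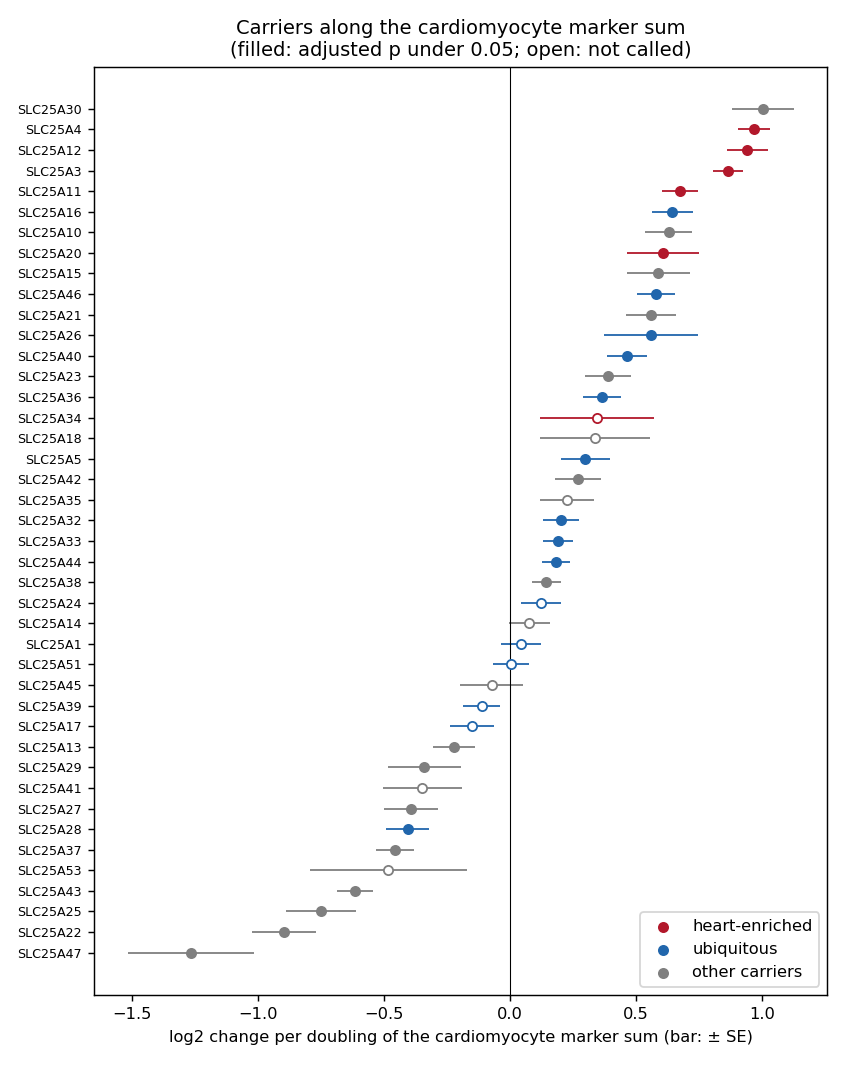
Slope of 42 carriers on the cardiomyocyte marker sum, as log2 change per doubling of the sum with its SE, coloured by list and filled where the adjusted p was under 0.05. The heart-enriched carriers SLC25A4 at 0.97, SLC25A12 at 0.94 and SLC25A3 at 0.87 sit near the top beside SLC25A30 at 1.004.

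The low end of the marker sum held few hearts. Without 537 and Little_R, 12 members rose and 11 fell (16.2% and 25.5% of all genes), and the ubiquitous carriers that rose went from 9 to 4. SLC25A4, SLC25A3, SLC25A12 and SLC25A11 still rose, by 0.81, 0.75, 0.73 and 0.64, while SLC25A20 had a slope of 0.24 (edgeR adjusted p = 0.171) and SLC25A5 one of 0.28 (edgeR adjusted p = 0.113). SLC25A26 and SLC25A36 had slopes of 0.34 (edgeR adjusted p = 0.286) and 0.19 (edgeR adjusted p = 0.117). Leaving out 495 as well left 9 members rising and 9 falling (13.5% and 24% of all genes), with SLC25A4 at 0.88. Scaling by the orthologous exon total alone moved the median of all genes to -0.24, so that 13 members rose and 12 fell (13.6% and 41.4% of all genes), with SLC25A4 at 0.98, SLC25A5 at 0.17 (edgeR adjusted p = 0.243), and SLC25A17 and SLC25A39 now among the falling carriers.

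Within the RNA of 2018 the slopes of SLC25A4 and SLC25A3 were 0.99 and 0.89, with 20 members rising and 8 falling (26% and 25.3% of all genes). Within the earlier RNA they were 0.90 and 0.77, with 4 members rising and 2 falling (2.71% and 3.05% of all genes), and SLC25A12 and SLC25A20 had slopes of 0.56 (edgeR adjusted p = 0.0558) and 0.11 (edgeR adjusted p = 0.808). The difference of the slope between the rounds was itself tested and was past the threshold for 0 of 43 members (edgeR, 7 members at an unadjusted p under 0.05), beside 0.0698% of all genes steeper and 0.00582% less steep in 2018. The smallest unadjusted p was that of SLC25A15, 0.90 ± 0.26 steeper in 2018 (edgeR adjusted p = 0.161).

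**Figure D3:**
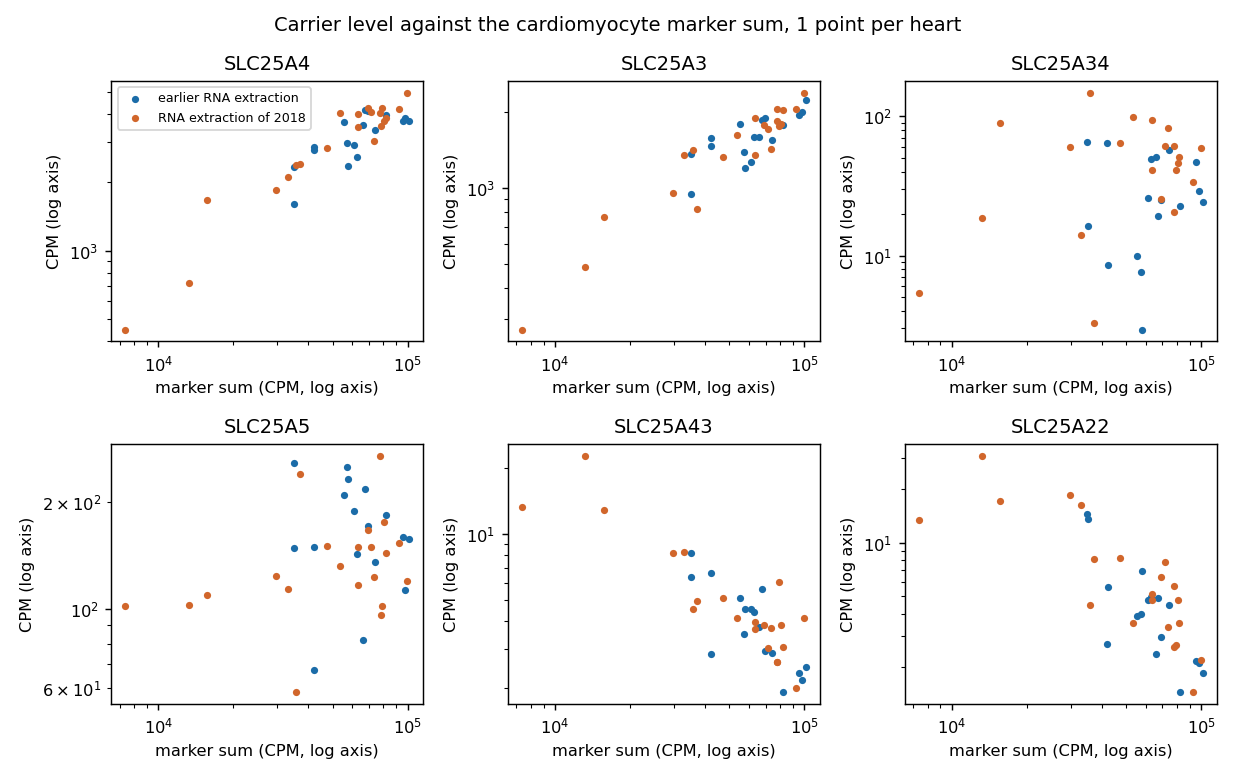
CPM of 6 carriers, scaled by the orthologous exon total, against the TMM-scaled cardiomyocyte marker sum in each of 38 hearts on log axes, coloured by round of RNA extraction. SLC25A4 and SLC25A3 rise from the hearts with the lowest sums, and SLC25A43 and SLC25A22 fall. SLC25A4 is at 3704 CPM in heart 317 (sum 55434 CPM) and at 3722 CPM in heart 456, which has the highest sum. SLC25A5 spreads between 58.5 and 269 CPM, and SLC25A34 between 2.94 and 147 CPM.

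Markers of other cell types differed in how they followed the sum, with which 26% of all genes tested rose and 28.2% fell. Of 7 fibroblast genes 5 fell, with DCN at -0.78 and PDGFRA at -0.78, while POSTN had a slope of 0.69 (edgeR adjusted p = 0.0503). Of 5 endothelial genes 4 fell, with CDH5 at -0.32, as did 2 of 3 neutrophil genes, 2 of 5 smooth muscle and pericyte genes and 1 of 6 macrophage genes, and 0 of 3 T cell and 0 of 3 erythrocyte genes tested were called. Of 5 adipocyte genes ADIPOQ and LEP rose, but their medians were 0.37 CPM or less in both rounds, with 0 CPM in the lowest hearts. FABP4 had a slope of -0.09 (edgeR adjusted p = 0.635), and PLIN1 and CIDEC did not pass the test. Of 3 hepatocyte genes APOA1 rose, by 0.69. The part of these markers in the slopes of the carriers was not tested.

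Most partners of the carriers rose with the same sum, beside 26% of all genes tested. All 4 enzymes of the malate-aspartate shuttle rose (MDH1 by 1.08 ± 0.08, GOT1 by 1.03 ± 0.09, GOT2 by 0.89 ± 0.06 and MDH2 by 0.70 ± 0.07), as did all 4 genes of ATP export and synthesis, with CKMT2, the mitochondrial creatine kinase of muscle, at 1.09 ± 0.11 and ATP5F1A at 1.02 ± 0.07. All 5 genes of the outer-membrane pores and the pyruvate carrier rose, from 0.66 for MPC2 to 1.08 for MPC1. In the carnitine shuttle CPT1B, the muscle form, rose by 0.89 ± 0.09, CPT2 by 0.76 ± 0.11 and CRAT by 0.58 ± 0.09, while CPT1A, the liver form, had a slope of 0.07 ± 0.11 (edgeR adjusted p = 0.580).

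The machinery that inserts carriers into the inner membrane had 7 of 9 genes rising, beside 26% of all genes tested, and a list median of 0.32. AGK, a kinase of the TIM22 complex, rose by 0.43 ± 0.05 and the receptor TOMM70 by 0.37 ± 0.06. TIMM10, an intermembrane chaperone, had a slope of 0.0042 ± 0.08. Among relatives outside the SLC25A symbols, MTCH2 rose by 0.70 ± 0.06 and MTCH1 fell by 0.23 ± 0.06, and the slopes of UCP2 and UCP3 were -0.26 and -0.06 and did not pass the test.

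The RNA extraction batch is a technical factor of the study, taken here by year as 2 rounds. In the edgeR fit with sex as covariate, 41 members were tested and 4 of them were higher in 2018, beside 11.2% of 15790 genes. A further 2 were lower, beside 4.82%. These shares are close to the background. None of the 6 heart-enriched carriers was called, with differences between -0.14 for SLC25A3 and 0.81 for SLC25A34 (edgeR adjusted p = 0.0992). Without 537 and Little_R SLC25A34 was called, at 0.94 (edgeR adjusted p = 0.0414). SLC25A4 differed by -0.06 ± 0.23.

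SLC25A27, also known as UCP4, ran from 9.08 over 12.9 to 22.2 CPM in the earlier round and from 15.8 over 34.1 to 120 CPM in 2018. The rounds overlapped, but all 21 hearts of 2018 were above the earlier median and 15 were above the highest earlier heart, a log2 difference of 1.45 ± 0.22 (edgeR adjusted p = 1.43e-05). SLC25A37 ran from 19.7 over 26.3 to 44.9 CPM and from 22.5 over 44.65 to 143 CPM, a difference of 0.90 ± 0.18 with 10 hearts of 2018 above every earlier heart.

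SLC25A29, a carrier of basic amino acids, ran from 10.5 over 18.7 to 40.1 CPM in the earlier round and from 12.3 over 35.4 to 131 CPM in 2018, a difference of 1.07 ± 0.24 with 9 hearts of 2018 above the earlier range. SLC25A28 ran from 22.6 over 39.1 to 103 CPM and from 32.5 over 49.6 to 177 CPM, a difference of 0.56 ± 0.18 (edgeR adjusted p = 0.0274) with only 4 such hearts. Both iron carriers, SLC25A28 and SLC25A37, were thus among the 4 higher carriers, and all 4 also fell with the cardiomyocyte marker sum.

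SLC25A24 was lower in 2018, from 15.5 over 25.6 to 46.1 CPM against 21.3 over 39.3 to 65.7 CPM earlier, a difference of -0.59 ± 0.12 (edgeR adjusted p = 0.000671). SLC25A32 ran from 6.73 over 21.3 to 26.3 CPM in 2018 and from 18.996 over 25.95 to 37.4 CPM earlier, a difference of -0.39 ± 0.12. SLC25A25 lay at the threshold, higher by 0.93 ± 0.34 in 2018 (edgeR adjusted p = 0.0553), with 0.55 (edgeR adjusted p = 0.242) without 537 and Little_R. For SLC25A24 and SLC25A32, 20 of 21 hearts of 2018 were below the earlier median, and the ranges overlapped.

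**Figure D4:**
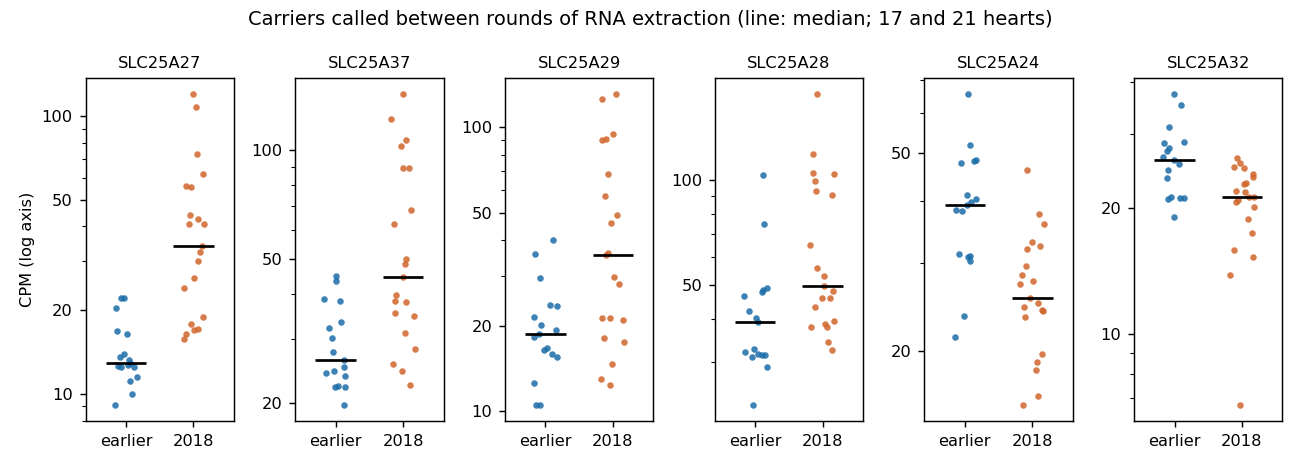
CPM on a log axis of the 6 carriers called between rounds of RNA extraction, with 1 point per heart (17 earlier hearts and 21 of 2018) and a line at each median. The first 4 panels are higher in 2018, with medians of 12.9 and 34.1 CPM for SLC25A27, and the last 2 are lower.

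With the cardiomyocyte marker sum as a covariate, SLC25A27, SLC25A37 and SLC25A29 remained higher in 2018, by 1.22, 0.67 and 0.87, and SLC25A28 had a difference of 0.38 (edgeR adjusted p = 0.067). Among the 21 animals of the Yerkes primate centre alone, 2 members were called higher and 0 lower (1.92% and 0.156% of all genes), SLC25A27 at 1.05 and SLC25A37 at 0.90. The differences of SLC25A29, SLC25A28, SLC25A24 and SLC25A32 there were 0.91, 0.41, -0.45 and -0.23 (edgeR adjusted p = 0.185, 0.455, 0.205 and 0.309). Of 6 macrophage markers 5 were lower in 2018, with summed levels of 68.2 to 743 CPM earlier and 28.04 to 323 CPM in 2018, and of 4 adipocyte markers tested 3 were higher, with sums of 120 to 978 CPM and 195 to 1672 CPM. The adipocyte sum was at its median mostly FABP4. Its medians were 236 CPM earlier and 504 CPM in 2018, beside 233 and 472 CPM for FABP4 alone. PLIN1 and CIDEC, also called higher, had low medians, 0.53 and 0.64 CPM for PLIN1 and 0.44 and 0.54 CPM for CIDEC. ADIPOQ was not called (edgeR adjusted p = 0.214). Its median was 0.37 CPM earlier and 0.11 CPM in 2018, and it was at 0 in the lowest heart of both rounds. The part of these macrophage and adipocyte markers in the differences of the carriers was not tested.

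Sex and RNA integrity gave no member past the threshold. For sex, 0 of 41 members were called by edgeR and by DESeq2, with 4 at an unadjusted p under 0.05 in both, beside 0.158% of genes higher and 0.057% lower in males. SLC25A29 was closest, with a range of 16.4 to 131 CPM and a median of 26.5 CPM in 16 males and of 10.5 to 90.3 CPM with a median of 18.4 CPM in 22 females (log2 difference 0.75 ± 0.23, edgeR adjusted p = 0.235). SLC25A34 pointed the other way, with medians of 19.9 CPM in males and 48.2 CPM in females (log2 difference -0.87 ± 0.35, edgeR adjusted p = 0.443). For RIN, 0 of 43 members were called by either tool, with 6 at an unadjusted p under 0.05 in both, and edgeR called 0% of all genes where DESeq2 called 82 rising and 86 falling. All 6 had a negative slope, among them SLC25A1, SLC25A10, SLC25A11, SLC25A35 and SLC25A41.

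Variability between animals was measured as the natural logarithm of a gene's negative binomial overdispersion minus its trend on mean expression, a measure the study also uses on counts over orthologous exons, here taken on the gene table without a term for gene length. Values above 0 mark genes that varied more than others of like level. Of 45 members 38 had a value, and 19 of them were above 0, beside 44.9% of 13121 genes. All 6 heart-enriched carriers were above 0 with a list median of 0.43, and 4 of the 15 ubiquitous carriers with a value were above 0 with a list median of -0.18, against -0.12 over all genes.

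SLC25A34 was the most variable member at 1.79 ± 0.22 (SE over animals), followed by SLC25A25 at 1.62 ± 0.52 and SLC25A29 at 1.55 ± 0.22. The value of SLC25A25 was 1.20 without heart 529. The least variable were SLC25A33 at -1.44 ± 0.17, SLC25A14, an uncoupling protein-like carrier, at -1.33 ± 0.36 and SLC25A44 at -1.28 ± 0.39.

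SLC25A4 and SLC25A3 lay within their error of the trend, with dispersions of 0.19 ± 0.42 and 0.15 ± 0.41, and these were -0.21 and -0.26 without Little_R. SLC25A11 and SLC25A46 also went below 0 without that animal, to -0.07 and -0.10, and SLC25A43 went from 0.09 to -0.34 without 537. SLC25A5 was at 0.22 ± 0.23. Without 537 and Little_R 4 of the 6 heart-enriched and 6 of the 15 ubiquitous carriers were above 0, and with the earlier RNA alone 3 and 6 were. A LOESS span of 0.3 for the trend gave 4 and 6. The TMM library size and the total of the gene table each gave 6 and 6, and the RNA of 2018 alone gave 6 and 3. Over all genes the share above 0 in these settings was 43.1% to 46.8%. The difference between the lists was not tested.

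**Figure D5:**
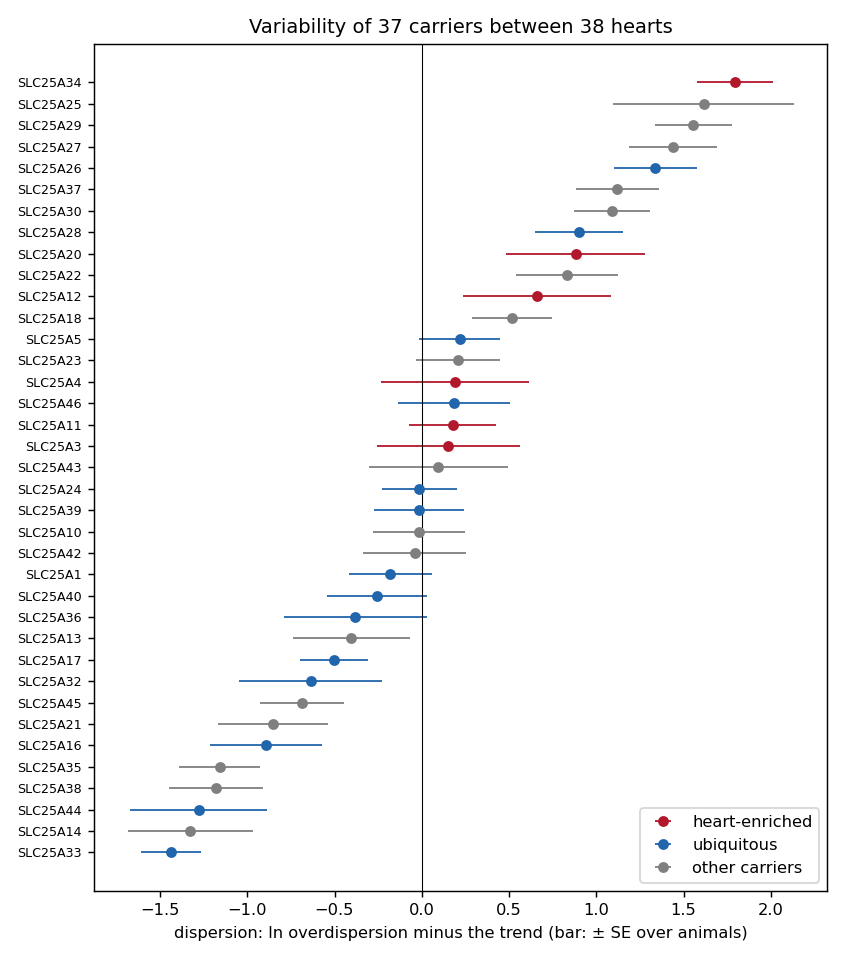
Dispersion of 37 carriers over 38 hearts with SE over animals, coloured by list, where 0 is the trend of all genes at the same mean level. SLC25A34 is highest at 1.79 and SLC25A33 lowest at -1.44, and SLC25A4 and SLC25A3 lie within their error of 0.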

How the data were processed

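RNA-seq of 38 chimpanzee hearts was analysed. Round of extraction, sex, RIN, age and centre were taken from the study's sample table by sample title. The deposited gene table holds the count per annotated gene that the authors obtained with STAR 2.6.1b, and the deposited orthologous exon table the count from featureCounts 1.6.3. Whether STAR's counts used strand is not given in the sources used here, so reads of genes that overlap could not be told apart by strand. 52 per-sample columns not tied to a sample were left out.

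Of the genes, 18040 had a symbol in the reference tables. The members, lists and tests were chosen with earlier results of these data known. Fits used edgeR 4.0.16 (TMM, filterByExpr, quasi-likelihood test, threshold 0.05), with DESeq2 1.42.0 as an alternative, and were tested on simulated data. SE is the log2 change divided by the square root of F. Values in full were given for the 2 lists, the 6 called members with the smallest p in each direction, and the 3 highest and lowest dispersions (SE from 1000 draws of the animals with replacement, LOESS span 0.75, genes with at least 6 CPM in 1 animal). 1 member entered the fits and counts but is not reported here by name or drawn.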

Additional observations from a re-analysis of the deposited data

How the results depend on the processing

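Beside the values given in the report, the Yerkes animals alone gave 2 members higher and 0 lower in 2018 (1.92% and 0.156% of all genes). Along the marker sum 13 members rose with the orthologous exon total, 12 without 537 and Little_R, 9 without 495 as well (chosen after the marker sums were seen) and 4 with the earlier RNA only, where 2 fell, beside 13.6%, 16.2%, 13.5% and 2.71% of all genes rising. SLC25A25 passed the threshold between rounds of extraction under 6 alternatives, among them DESeq2 (0.98, adjusted p = 0.0202), and adjusted p ranged from 0.0202 to 0.585 over all of them. SLC25A44 had a slope of -0.078 and SLC25A32 of -0.20 with the earlier RNA only, and SLC25A32 one of -0.031 without 537, Little_R and 495. Of the heart-enriched carriers, 3 had a dispersion above 0 with the earlier RNA only, and of the ubiquitous carriers 7 with the dispersion taken over genes whose median was 6 CPM or more. The mean of SLC25A4 was 1887 CPM over the total of the gene table and 1872 CPM over the TMM library size, and that of SLC25A5 89.96 and 87.1 CPM. The cause was not tested. The other 80 summary values stayed within 1.5 times the main count or kept their direction and side of the threshold, DESeq2, RIN as a covariate and the absence of a filter included. Values of single genes were less stable: 282 stayed the same, 37 were weaker, 7 stronger, 19 moved and 3 reversed. Along the marker sum SLC25A5 and SLC25A26 stayed the same in 5 of 9 alternatives each, and SLC25A32 in 4. Leaving out 4X0354 was also chosen after seeing the values. Counts on orthologous exons for the members were not run, since gene identifiers of the 2 tables are not paired, and the ratio of SLC25A4 to SLC25A6 was not run. No paired analysis was possible because the labels give no numbers that pair the animals.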
